A study of Homo sapiens with 6 samples.

Results

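The genes described here encode the nuclear subunits of mitochondrial complexes II to V together with cytochrome c. They were taken by symbol from the deposited tables: every symbol starting with UQCR, ATP5 or COX4 to COX8, plus SDHA, SDHB, SDHC, SDHD, CYC1 and CYCS. The rule matched 53 symbols, and 1 pseudogene (UQCRBP1) was dropped, which left 52 of the 38557 gene symbols. Complex II contributed 4 genes, complex III 10, complex IV 17, complex V 20 and cytochrome c 1. Of the 52 genes, 43 had enough counts to be tested.

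Poly(A)-selected RNA was sequenced from T-24 cells, an established human line that was derived from bladder cancer, grows attached and is labelled epithelial and WT. The treated group received CCT068127, a small molecule known as an inhibitor of the kinases CDK2 and CDK9, at 1 µM for 48 h (3 libraries). The comparison group received the vehicle DMSO for the same 48 h (3 libraries). The labels describe the 3 libraries of each group as independent biological replicates of this 1 line. The question here is how these genes' transcript levels differed in cells given the compound from those in cells given vehicle alone.

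Electrons from succinate enter the respiratory chain at complex II, pass through ubiquinone to complex III, travel on cytochrome c to complex IV and reduce oxygen there. Complexes III and IV pump protons across the inner membrane, and complex V, the ATP synthase, lets them flow back through a rotating ring of c subunits to make ATP in its F1 head. Complex II is wholly nuclear-encoded, whereas complexes III, IV and V also contain subunits encoded in mitochondrial DNA, so their assembly draws on both genomes. The nuclear factors NRF1 and GABP (an ETS-family factor), and also YY1, are known regulators of many of these nuclear genes.

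Upstream sequences are shown for 5 genes on which the results below turn: both c-subunit genes that moved in opposite directions, cytochrome c, and 2 of the complex IV genes with the largest changes. Each run gives the 250 bases before the RefSeq transcription start on the gene's own strand, 5′ to 3′, from the RefSeq promoter table (build GRCh38.p14). Capitals mark, on either strand, the NRF1 core GCGCATGC, the ETS core CCGGAAG, the YY1 core AAGATGGC, the cyclic AMP response element core TGACGTCA and the CCAAT box. The last 2 motifs were added after the ATP5MC1 sequence had been read. The windows lie at chr17:48892537-48892786 (ATP5MC1, plus strand), chr12:53676084-53676333 (ATP5MC2, minus strand), chr7:25125261-25125510 (CYCS, minus strand), chr12:120437863-120438112 (COX6A1, plus strand) and chr11:63974370-63974619 (COX8A, plus strand).
ATP5MC1: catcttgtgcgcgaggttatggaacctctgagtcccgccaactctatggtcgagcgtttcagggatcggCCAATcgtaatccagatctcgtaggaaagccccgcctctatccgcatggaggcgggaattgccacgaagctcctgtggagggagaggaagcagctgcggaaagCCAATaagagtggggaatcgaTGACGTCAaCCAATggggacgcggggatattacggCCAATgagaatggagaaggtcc
ATP5MC2: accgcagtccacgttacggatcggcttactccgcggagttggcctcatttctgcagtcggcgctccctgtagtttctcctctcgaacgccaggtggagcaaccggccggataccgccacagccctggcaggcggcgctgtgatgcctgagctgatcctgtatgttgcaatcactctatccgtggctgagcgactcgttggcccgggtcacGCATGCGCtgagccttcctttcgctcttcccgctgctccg
CYCS: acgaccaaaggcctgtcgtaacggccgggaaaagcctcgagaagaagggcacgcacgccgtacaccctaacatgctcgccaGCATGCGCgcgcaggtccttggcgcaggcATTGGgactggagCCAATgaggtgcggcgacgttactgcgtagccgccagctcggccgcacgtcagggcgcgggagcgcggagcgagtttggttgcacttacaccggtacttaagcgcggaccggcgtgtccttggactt
COX6A1: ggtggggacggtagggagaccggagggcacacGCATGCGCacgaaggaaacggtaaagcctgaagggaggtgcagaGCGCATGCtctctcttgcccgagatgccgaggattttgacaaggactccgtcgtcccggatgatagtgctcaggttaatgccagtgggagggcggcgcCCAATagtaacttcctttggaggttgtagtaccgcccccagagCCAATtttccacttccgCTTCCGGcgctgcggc
COX8A: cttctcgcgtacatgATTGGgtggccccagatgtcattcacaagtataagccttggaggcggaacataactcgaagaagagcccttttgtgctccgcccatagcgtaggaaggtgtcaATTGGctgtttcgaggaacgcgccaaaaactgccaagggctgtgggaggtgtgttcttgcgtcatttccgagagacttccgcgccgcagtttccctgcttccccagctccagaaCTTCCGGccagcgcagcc
The ATP5MC1 window held a cyclic AMP response element core 57 to 50 bases before the start and 4 CCAAT boxes, with no NRF1, ETS or YY1 core. The start used for ATP5MC2 lies inside the RefSeq span of that gene, which reaches further upstream. Its window held an NRF1 core 40 to 33 bases before the start and no other of the 5 motifs. CYCS had an NRF1 core 169 to 162 bases before its start, COX6A1 had 2 NRF1 cores and an ETS core 16 to 10 bases before its start, and COX8A had an ETS core 18 to 12 bases before its start. CYCS, COX6A1 and COX8A also held 2 CCAAT boxes each. A match describes the letters in the window and is not a measured binding site.

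Library totals were 5557546, 1966742 and 4657316 counts in the CCT068127 libraries, against 371044040, 411097626 and 5955296 in the DMSO libraries, so precision was set by the 4 shallow libraries. CCT068127 replicate 2, the shallowest, also stood apart in the share of counts from the 13 mitochondrially encoded protein genes (4.07%, against 2.01% to 2.42% in the other 5 libraries). The keratins KRT7, KRT8, KRT18 and KRT19 had 191 to 2648 TPM in every library, whereas the epithelial genes CDH1 (at most 0.14 TPM) and EPCAM (2.67 to 5.71 TPM) and the urothelial uroplakins UPK1A, UPK1B, UPK2 and UPK3A (at most 1.83 TPM) were near 0. Of the 2 urothelial regulators, GATA3 had 12.1 to 16.1 TPM in CCT068127 and 78.1 to 99.6 TPM in DMSO, and PPARG had 44.6 to 47.2 TPM in CCT068127 and 134 to 148 TPM in DMSO; the part of this difference in the results below was not tested. The mesenchymal genes VIM (322 to 422 TPM), FN1 (1081 to 1666 TPM) and CDH2 (80.2 to 105 TPM) were present in every library. Of the blood and endothelial genes, PTPRC and CD3E were at most 0.52 TPM, while PECAM1 reached 3.3 and CDH5 4.58 TPM. Of 4 muscle genes, MYH7 and MYH2 had 0 in all 6 libraries, TNNT2 was at most 0.06 TPM, and ACTN2 had 0.25 to 0.88 TPM.

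CCT068127-treated cells carried more transcript of the nuclear respiratory subunits, relative to their other transcripts, than DMSO-treated cells, and among the 4 complexes the difference was largest in complex IV. The 52 genes together made up 1.56%, 1.47% and 1.52% of all TPM (a transcript level per length, scaled to the same sum in every library) in the CCT068127 libraries, against 1.06%, 1.02% and 1.02% in the DMSO libraries. Complex IV genes summed to 6837, 6590 and 6585 TPM in the CCT068127 libraries, against 3686, 3576 and 3566 TPM in the DMSO libraries. Complex V genes summed to 5795, 5470 and 5788 TPM in the CCT068127 libraries, against 4697, 4574 and 4524 TPM in the DMSO libraries. The groups did not overlap for any of the 4 complexes or for cytochrome c. In DMSO the complex V genes summed higher than the complex IV genes in each library, and in CCT068127 the order was the other way round in each library.

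Gene by gene, 34 of the 43 tested members were higher in CCT068127, 3 were lower and 6 did not pass the threshold (edgeR quasi-likelihood test, Benjamini-Hochberg adjusted p under 0.05 over 13597 genes). Changes were widespread in this comparison: 31.9% of all genes tested were higher and 32.8% were lower. The members' median log2 fold change was 0.82, beside -0.05 for all genes tested. Against the DMSO mean, the members' median was 0.89, 0.78 and 0.83 on the log2 scale in CCT068127 replicates 1 to 3, beside 0.04, 0.00 and -0.02 in DMSO replicates 1 to 3.

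How libraries were scaled moved the fold changes of all genes. With library totals in place of TMM (a scaling that assumes most genes do not change), 27 members were higher and 3 lower, beside 22.1% and 48.3% of all genes. On log2(TPM + 1), tested with limma-trend, 26 of 44 members were higher and 7 lower, beside 17.2% and 51.9% of all genes. The 44 include COX6B2, which is among those higher and passed the filter only through the CCT068127 libraries. The median of all genes was -0.36 with library totals and -0.46 on log2(TPM + 1), and the members' median lay 0.87 above it with TMM, 0.87 above it with library totals and 0.92 above it on log2(TPM + 1). Without a low-value filter, which brings in many genes near 0, this distance was 1.22 in edgeR and 0.44 on log2(TPM + 1). No spike-in is named in the labels, so the values are relative to the other transcripts of a library, and a change in RNA per cell cannot be told apart from them. Fold changes below are from TMM-scaled counts unless another scaling is named. They are therefore not the ratios of the TPM values printed beside them. COX4I1, for example, had a log2 fold change of 1.04 with TMM and 0.55 on log2(TPM + 1).

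**Figure D1:**
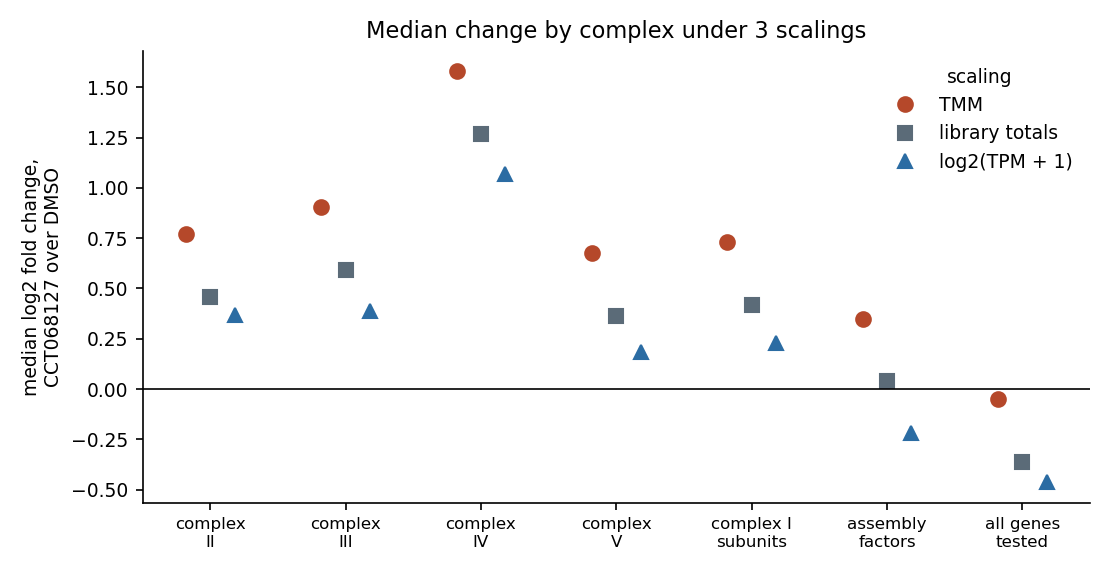
Median log2 fold change, CCT068127 over DMSO (vertical axis), of each complex, of 2 related gene lists and of all genes tested (horizontal axis), under TMM (circles), library totals (squares) and log2(TPM + 1) (triangles). Complex IV lies highest under each scaling (1.58, 1.27 and 1.07), while the median of all genes is -0.05, -0.36 and -0.46.

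Transcript length moved with the fold change. Over 12715 tested genes, Spearman's rho between length (estimated counts per TPM in DMSO replicate 2) and log2 fold change was -0.20, a description across genes, which are not independent replicates. The members are short: 38 of 43 were shorter than the median tested gene. With the tested genes cut into 4 equal groups by length, 38.9% of the 3179 shortest were higher in CCT068127 and the median log2 fold change was 0.14, while 26 of the 32 members among those shortest genes were higher, with a median of 1.05. The part of length in the members' values beyond this was not tested.

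**Figure D2:**
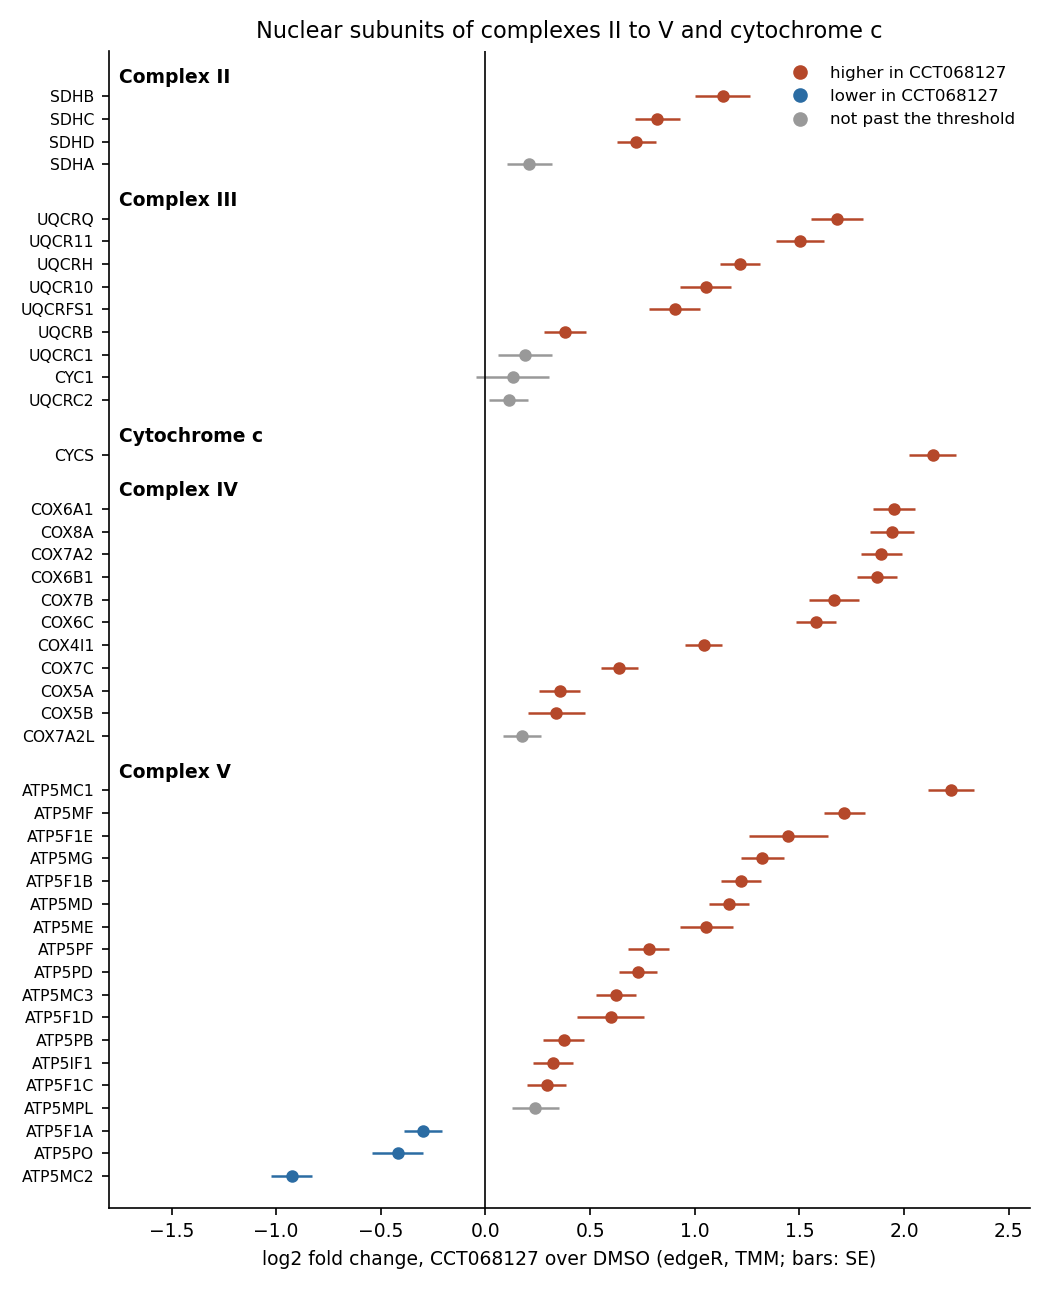
Log2 fold change, CCT068127 over DMSO (horizontal axis), of each of the 43 tested genes, grouped by complex, with bars for the SE and colours for higher, lower or not past the threshold. Values run from -0.93 for ATP5MC2 to 2.22 for ATP5MC1, and the 3 genes that were lower with TMM all belong to complex V.

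Complex II, succinate dehydrogenase, had 3 of its 4 genes higher and none lower, with a median log2 fold change of 0.77. SDHB, the iron-sulfur subunit, had 203, 150.3 and 208 TPM in the CCT068127 libraries, against 130.2, 112 and 122 TPM in the DMSO libraries. It rose 2.19-fold (log2 fold change 1.13 ± 0.13, SE; edgeR adjusted p = 2.83e-05). The groups did not overlap, and CCT068127 replicate 2 was the lowest of the treated libraries. SDHC and SDHD anchor the complex in the membrane and bind ubiquinone. SDHC had 70.3, 91.7 and 81.6 TPM in the CCT068127 libraries, against 54.5, 55.1 and 59.9 TPM in the DMSO libraries, and rose (log2 fold change 0.82 ± 0.11, SE; edgeR adjusted p = 7.47e-05). SDHD had 165, 165 and 168 TPM in the CCT068127 libraries, against 148, 137 and 139 TPM in the DMSO libraries, and rose (log2 fold change 0.72 ± 0.09, SE; edgeR adjusted p = 5.59e-05). Every treated library lay above every DMSO library for both anchors. SDHA, the flavoprotein that oxidises succinate, had 105, 92.3 and 96.3 TPM in the CCT068127 libraries, against 129, 122 and 107 TPM in the DMSO libraries. Its log2 fold change was 0.21 ± 0.11 (SE, edgeR adjusted p = 0.113) with TMM, and on log2(TPM + 1) it was -0.28 and called lower.

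In complex III, ubiquinol-cytochrome c reductase, the small accessory subunits rose and the large core subunits did not pass the threshold. Of 9 tested genes 6 were higher and none lower, with a median log2 fold change of 0.90, and the tenth, UQCRHL, was below the count filter. The 5 small subunits that could be tested were all higher with TMM, with a median of 1.22, and 4 of the 5, all but UQCRB, were also higher with library totals and on log2(TPM + 1). UQCRQ had 192, 144 and 165 TPM in the CCT068127 libraries, against 74.9, 74.3 and 71 TPM in the DMSO libraries, and rose (log2 fold change 1.68 ± 0.12, SE; edgeR adjusted p = 1.11e-06). UQCR11, the smallest subunit, had 277, 222 and 281 TPM in the CCT068127 libraries, against 128, 126 and 135 TPM in the DMSO libraries, and rose (log2 fold change 1.50 ± 0.11, SE; edgeR adjusted p = 1.26e-06). In both genes every treated library was above every DMSO library. UQCRH, the hinge protein next to cytochrome c1, was the most abundant complex III transcript, at 1109, 1059 and 978 TPM in the CCT068127 libraries and 625, 606 and 613 TPM in the DMSO libraries. It rose 2.32-fold (log2 fold change 1.22 ± 0.10, SE; edgeR adjusted p = 1.68e-06), with no overlap between the groups. UQCR10, another small subunit, had 141, 124 and 169 TPM in the CCT068127 libraries, against 104, 99.5 and 92.4 TPM in the DMSO libraries, and rose (log2 fold change 1.05 ± 0.12, SE; edgeR adjusted p = 2.94e-05). UQCRB, another small subunit, was higher with TMM (log2 fold change 0.38) and lower without passing the threshold on log2(TPM + 1) (-0.11).

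Of the electron-transferring and core subunits of complex III, 1 of 4 was called. UQCRFS1, the Rieske iron-sulfur protein, had 68.2, 52.4 and 58 TPM in the CCT068127 libraries, against 48.6, 42.5 and 44 TPM in the DMSO libraries, and rose (log2 fold change 0.90 ± 0.12, SE; edgeR adjusted p = 8.8e-05). CYC1, cytochrome c1, had 243, 137 and 200.3 TPM in the CCT068127 libraries, against 261, 242 and 259 TPM in the DMSO libraries. Its log2 fold change was 0.13 ± 0.17 (SE, edgeR adjusted p = 0.532), and the treated libraries spread more widely than the DMSO libraries, with CCT068127 replicate 2 lowest. Without that library CYC1 passed the threshold, at 0.29 (edgeR adjusted p = 0.0452), and so did UQCRC1, at 0.28 (edgeR adjusted p = 0.0395). Under the other scalings, with all libraries, both were negative without passing the threshold: CYC1 was -0.185 with library totals and -0.43 on log2(TPM + 1), and UQCRC1 was -0.125 with library totals and -0.33 on log2(TPM + 1). With all 6 libraries the core proteins UQCRC1 and UQCRC2 had log2 fold changes of 0.19 ± 0.13 and 0.11 ± 0.09 (SE, edgeR adjusted p = 0.225 and 0.314), and on log2(TPM + 1) UQCRC2 was called lower at -0.37.

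Cytochrome c, the soluble carrier between complexes III and IV and also a trigger of apoptosis when released from mitochondria, rose more than any tested subunit other than ATP5MC1. CYCS had 61.8, 81.8 and 75.8 TPM in the CCT068127 libraries, against 24.1, 22.8 and 22.6 TPM in the DMSO libraries, with no overlap. It rose 4.40-fold (log2 fold change 2.14 ± 0.11, SE; edgeR adjusted p = 1.39e-07), and the log2 fold change was 1.61 on log2(TPM + 1). CYCS was the lowest of the 43 tested members by mean TPM in DMSO. GENCODE 29 names 40 pseudogenes after CYCS, the most of any member, so its estimated counts may share reads with near-identical copies.

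Complex IV, cytochrome c oxidase, had 10 of 11 tested genes higher and none lower, with a median log2 fold change of 1.58. All of these are accessory subunits that surround the mitochondrially encoded catalytic core. COX6A1 had 1173, 1195 and 1039 TPM in the CCT068127 libraries, against 427, 401 and 409 TPM in the DMSO libraries, and rose 3.86-fold (log2 fold change 1.95 ± 0.10, SE; edgeR adjusted p = 1.25e-07). COX8A, the smallest subunit, was the most abundant member under treatment, at 1610.3, 1396 and 1527 TPM in the CCT068127 libraries, against 594, 522 and 539.8 TPM in the DMSO libraries. It rose 3.85-fold (log2 fold change 1.94 ± 0.10, SE; edgeR adjusted p = 1.56e-07). COX7A2, the widely expressed form of subunit VIIa, had 607, 679.5 and 604 TPM in the CCT068127 libraries, against 249, 236 and 230.2 TPM in the DMSO libraries, and rose (log2 fold change 1.89 ± 0.10, SE; edgeR adjusted p = 1.21e-07). COX6B1, which faces the intermembrane space where cytochrome c docks, had 701, 755 and 738 TPM in the CCT068127 libraries, against 288, 288 and 261 TPM in the DMSO libraries, and rose (log2 fold change 1.87 ± 0.10, SE; edgeR adjusted p = 1.28e-07). In all 4 genes the lowest treated library was more than 2 times the highest DMSO library. COX7B and COX6C followed, with log2 fold changes of 1.66 and 1.58, though GENCODE 29 names 17 pseudogenes after COX6C. It also names 7 after COX6B1.

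The other complex IV subunits changed less. COX4I1, the widely expressed form of the regulatory subunit IV, had 1082, 1039.9 and 1021 TPM in the CCT068127 libraries, against 713, 711 and 717 TPM in the DMSO libraries, and rose 2.06-fold (log2 fold change 1.04 ± 0.09, SE; edgeR adjusted p = 3.01e-06). COX7C was higher with TMM (log2 fold change 0.64) and not past the threshold on log2(TPM + 1) (0.15). The matrix-side subunits COX5A and COX5B were called higher with TMM (log2 fold changes 0.35 and 0.34) and were negative without passing the threshold on log2(TPM + 1) (-0.14 and -0.21). On the TMM-scaled CPM values, COX5B was also the one called member whose treated and DMSO libraries overlapped. Its edgeR adjusted p was 0.048, just inside the threshold, and it lost the call when any 1 library other than CCT068127 replicate 2 was left out. The TPM ratio of COX8A to COX5B, a pair chosen after the values were seen, was 8.47, 10.7 and 8.01 in the CCT068127 libraries, against 3.17, 2.69 and 2.69 in the DMSO libraries, so transcripts for subunits of 1 complex changed unequally within a library. COX7A2L, which joins complexes III and IV in supercomplexes, had 215, 229.9 and 205 TPM in the CCT068127 libraries, against 274, 266 and 245 TPM in the DMSO libraries. Its log2 fold change was 0.18 ± 0.09 (SE, edgeR adjusted p = 0.111) with TMM, and on log2(TPM + 1) it was called lower at -0.27.

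**Figure D3:**
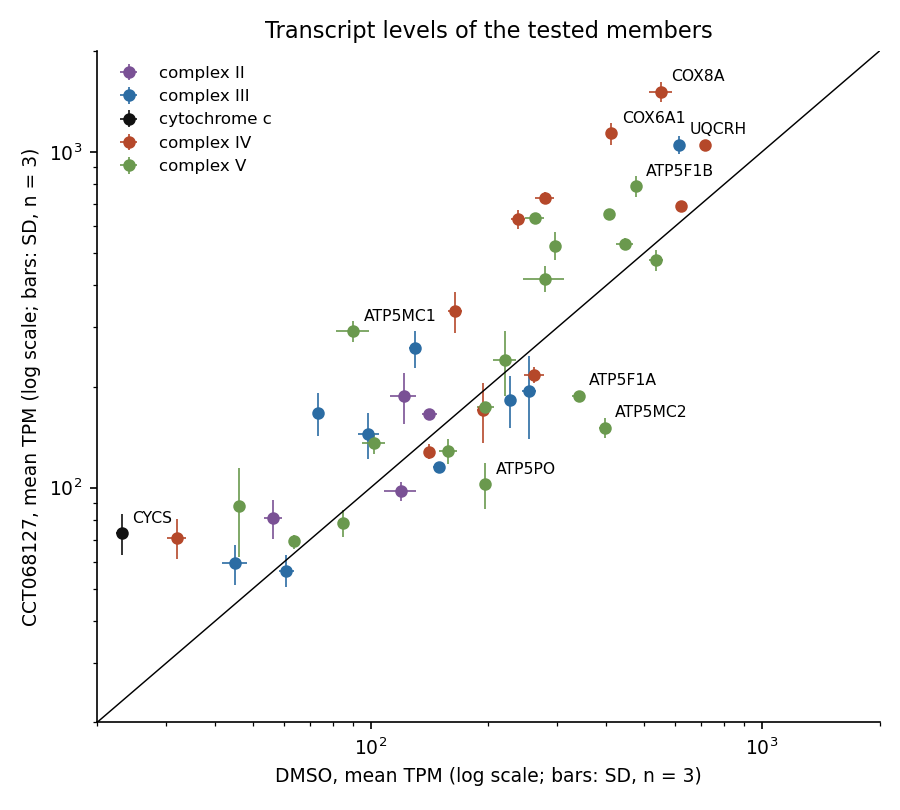
Mean TPM in CCT068127 (vertical axis) against mean TPM in DMSO (horizontal axis), both on log scales, for the 43 tested genes, with bars for the SD over 3 libraries and a line of equal level. COX8A and COX6A1 lie far above the line, while ATP5MC2, ATP5F1A and ATP5PO lie below it.

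Complex V, the ATP synthase, had 14 of 18 tested genes higher and 3 lower, with a median log2 fold change of 0.68. It was the one complex with genes called in both directions under TMM. On log2(TPM + 1) every complex had a gene called lower: SDHA, UQCRC2, COX7A2L and, in complex V, ATP5F1A, ATP5MC2, ATP5MPL and ATP5PO. With library totals 10 of the 18 complex V genes were higher and 3 lower, beside 22.1% and 48.3% of all genes. Among the small membrane subunits 4 of 5 were higher and none lower with TMM, with a median of 1.16. ATP5MF (subunit f) had 656, 629 and 625 TPM in the CCT068127 libraries, against 275, 268 and 246 TPM in the DMSO libraries, and rose 3.28-fold (log2 fold change 1.72 ± 0.10, SE; edgeR adjusted p = 2.42e-07). ATP5MG (subunit g) had 550.3, 469 and 558 TPM in the CCT068127 libraries, against 292, 296 and 302 TPM in the DMSO libraries, and rose (log2 fold change 1.32 ± 0.10, SE; edgeR adjusted p = 1.47e-06). Subunits e and g, with the small subunit encoded by ATP5MD (now ATP5MK), lie where ATP synthases pair into dimers. ATP5MD rose by a log2 fold change of 1.16 and ATP5ME (subunit e) by 1.06. ATP5MPL (now ATP5MJ), at 0.24 with TMM, did not pass the threshold (edgeR adjusted p = 0.0833), and on log2(TPM + 1) it was called lower at -0.29.

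The ring of c subunits is fed by 3 genes, ATP5MC1, ATP5MC2 and ATP5MC3, whose precursors differ in the targeting peptide but give the same mature protein. ATP5MC1 (GRCh38, chromosome 17, 48892787 to 48895871) had 284, 278 and 316 TPM in the CCT068127 libraries, against 84.9, 85.8 and 100.2 TPM in the DMSO libraries. It rose 4.67-fold (log2 fold change 2.22 ± 0.11, SE; edgeR adjusted p = 1.02e-07). ATP5MC2 (chromosome 12, 53665170 to 53681423) had 139, 158 and 155 TPM in the CCT068127 libraries, against 408, 399 and 381 TPM in the DMSO libraries. It fell (log2 fold change -0.93 ± 0.10, SE; edgeR adjusted p = 1.57e-05), and by a larger amount on log2(TPM + 1), -1.39. ATP5MC3 had 73, 66.9 and 67.7 TPM in the CCT068127 libraries and 63.2, 64 and 64.5 TPM in the DMSO libraries, and was higher with TMM (log2 fold change 0.62) and not past the threshold on log2(TPM + 1) (0.11). The groups did not overlap for any of the 3 genes.

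**Figure D4:**
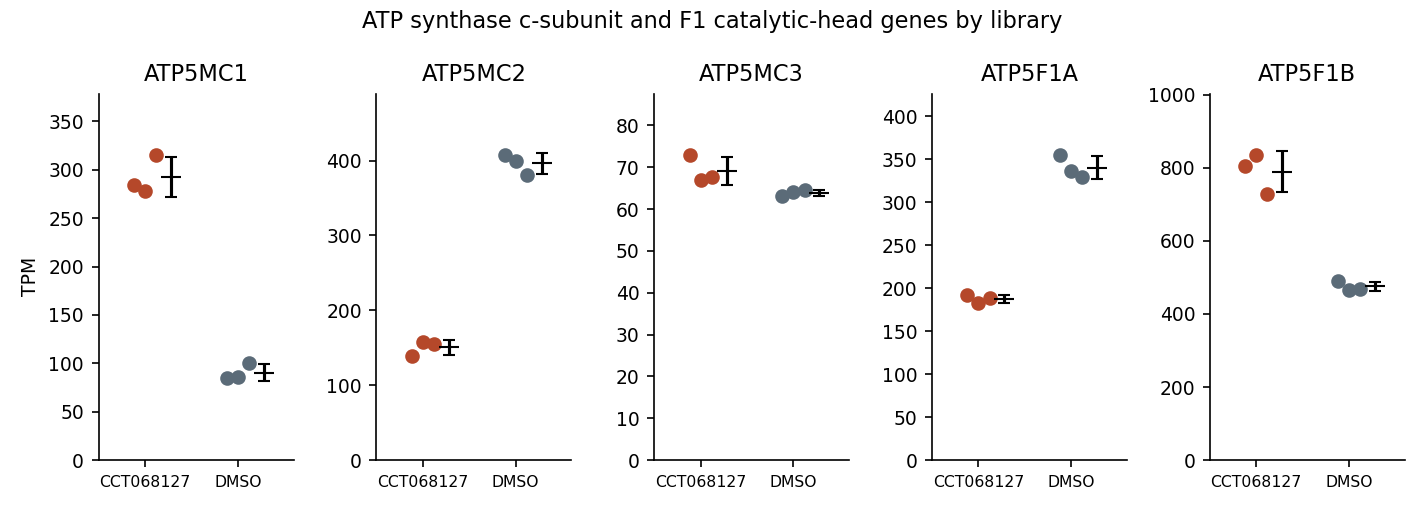
TPM (vertical axes, each from 0) of 3 c-subunit genes and of the F1 genes ATP5F1A and ATP5F1B in each library, CCT068127 left and DMSO right, with the mean and SD over 3 libraries beside the points. ATP5MC1 and ATP5F1B are higher in every CCT068127 library, and ATP5MC2 and ATP5F1A are lower in every one.

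Within each library the main source of c-subunit transcript was a different gene in each group. ATP5MC1 supplied 57.3%, 55.3% and 58.6% of the summed TPM of the 3 genes in the CCT068127 libraries, against 15.3%, 15.6% and 18.4% in the DMSO libraries. ATP5MC2 supplied 28%, 31.4% and 28.8% in the CCT068127 libraries, against 73.4%, 72.7% and 69.8% in the DMSO libraries. The ATP5MC1 share averaged 57.1% ± 1.68 in CCT068127 and 16.4% ± 1.69 in DMSO (SD, n = 3 each), a difference of 40.6 percentage points. A two-sided exact permutation test over the 6 libraries gave p = 0.1, the smallest value that 3 against 3 allows. Shares within a library do not depend on scaling between libraries. Taken over estimated counts, which are not per length, the ATP5MC1 share was 35.5% ± 1.52 in CCT068127 and 10.4% ± 1.02 in DMSO (SD, n = 3 each). The summed TPM of the 3 genes was 497, 502 and 539 in the CCT068127 libraries, against 556, 549 and 546 in the DMSO libraries, so the sum differed far less than the shares. GENCODE 29 names 7 pseudogenes after ATP5MC1 and 3 after ATP5MC2.

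**Figure D5:**
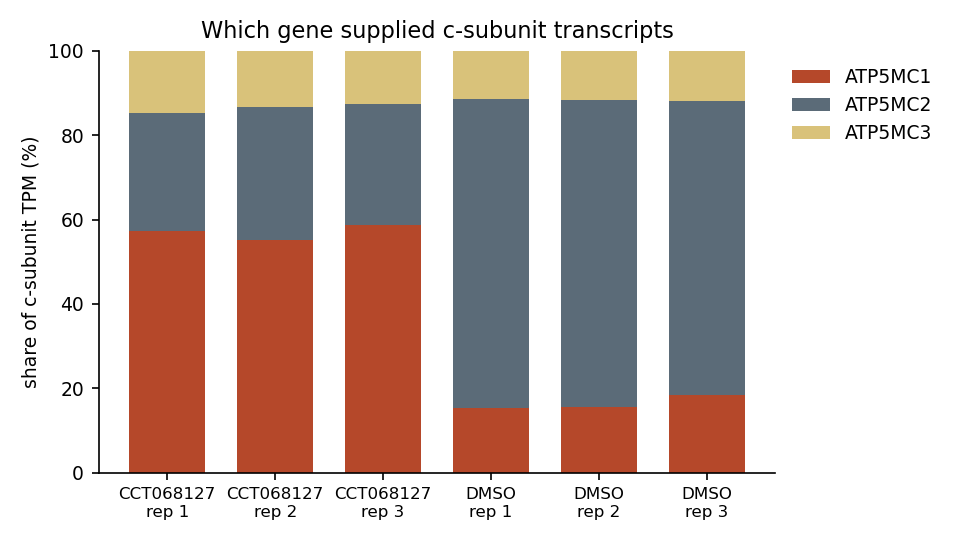
Share of the summed TPM of ATP5MC1, ATP5MC2 and ATP5MC3 that each gene supplied (vertical axis, percent) in each library, CCT068127 replicates left and DMSO replicates right. ATP5MC1 makes up 55.3% to 58.6% in CCT068127 and 15.3% to 18.4% in DMSO.

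The F1 head was also uneven. ATP5F1B, the catalytic beta subunit (GRCh38, chromosome 12, 56638175 to 56645984), had 804, 836 and 728 TPM in the CCT068127 libraries, against 491, 466 and 469 TPM in the DMSO libraries, and rose 2.33-fold (log2 fold change 1.22 ± 0.10, SE; edgeR adjusted p = 1.48e-06). ATP5F1A, the alpha subunit that alternates with beta in equal number (chromosome 18, 46080248 to 46104227), had 192, 183 and 189 TPM in the CCT068127 libraries, against 355, 336 and 329 TPM in the DMSO libraries. It fell (log2 fold change -0.30 ± 0.09, SE; edgeR adjusted p = 0.0141). The TPM ratio of ATP5F1A to ATP5F1B, chosen after the values were seen, was 0.238, 0.219 and 0.26 in the CCT068127 libraries, against 0.724, 0.722 and 0.7 in the DMSO libraries, with no overlap. GENCODE 29 names 7 pseudogenes after ATP5F1A and 1 after ATP5F1B. ATP5F1E, the epsilon subunit of the central stalk, rose by a log2 fold change of 1.45. ATP5F1D, the delta subunit, was higher with TMM (0.60) and not past the threshold with library totals (0.28) or on log2(TPM + 1) (0.10). ATP5F1D had 288, 183 and 250.02 TPM in the CCT068127 libraries, against 236, 216 and 209 TPM in the DMSO libraries, so CCT068127 replicate 2 lay below all 3 DMSO libraries. ATP5F1C, the gamma subunit, was called higher with TMM (log2 fold change 0.29) and was negative without passing the threshold with library totals (-0.02) and on log2(TPM + 1) (-0.18).

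In the peripheral stalk, which holds the F1 head still against the turning ring, 3 of 4 genes were higher and 1 was lower. ATP5PO, the OSCP subunit at the tip of the stalk, had 112, 84.1 and 111 TPM in the CCT068127 libraries, against 201, 199.5 and 189 TPM in the DMSO libraries. It fell (log2 fold change -0.42 ± 0.12, SE; edgeR adjusted p = 0.0115), with no overlap. With DMSO replicate 3, a single library, as the only control, ATP5PO and ATP5F1A lost their calls at similar log2 fold changes (-0.39 and -0.265), and ATP5MC2 was the 1 member still called lower. ATP5PF (coupling factor 6) and ATP5PD (subunit d) rose, with log2 fold changes of 0.78 and 0.73. ATP5PB (subunit b) was called higher with TMM (0.37) and was negative without passing the threshold on log2(TPM + 1) (-0.11). The inhibitor ATP5IF1, which blocks ATP hydrolysis by the enzyme when the membrane potential is lost, had 488, 438 and 503 TPM in the CCT068127 libraries, against 562, 522 and 527 TPM in the DMSO libraries. Every treated library was below every DMSO library in TPM, yet with TMM it was called higher (log2 fold change 0.32), and on log2(TPM + 1) it was negative without passing the threshold (-0.17), so its direction rested on the scaling.

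The 9 members below the count filter were mostly forms restricted to particular tissues. COX6A2, used in heart and skeletal muscle, and COX7B2 had 0 counts in all 6 libraries. A count of 0 allows up to 3 counts, equal to 0.504 to 1.53 CPM in the 4 shallow libraries and to 0.0073 and 0.00809 CPM in the 2 deep DMSO libraries. COX4I2, the oxygen-regulated form of subunit IV, had 0 counts over the CCT068127 libraries and 3 over the DMSO libraries. COX7A1 had 1 count over the CCT068127 libraries and 4 over the DMSO libraries, and COX8C had 1 over the CCT068127 libraries and 2 over the DMSO libraries. UQCRHL, a relative of UQCRH, had 1 count over the CCT068127 libraries and 64 over the DMSO libraries. Pooled DMSO depth was far larger, so raw counts do not give a direction. ATP5MGL had 4 counts over the CCT068127 libraries and 33 over the DMSO libraries, a ratio of 7.84 per count sequenced (95% interval 2.02 to 22, counting error only), CCT068127 over DMSO. By library these were 2, 0 and 2 counts in CCT068127 and 22, 10 and 1 in DMSO. On TMM-scaled CPM the groups overlapped, so the replicates do not show a rise of ATP5MGL. COX6B2, the testis form of subunit VIb, had 25 counts over the CCT068127 libraries and 470 over the DMSO libraries, a ratio of 3.44 per count sequenced (2.2 to 5.14). It had 1.42, 2.57 and 3.47 TPM in the CCT068127 libraries, against 0.85, 0.63 and 0.21 TPM in the DMSO libraries, with no overlap. On log2(TPM + 1) COX6B2 was called higher (1.14). It passed the filter of 1 TPM in 3 libraries only through the CCT068127 libraries, so that call is no separate evidence of a rise. Its share of the TPM of COX6B1 and COX6B2 was 0.202%, 0.339% and 0.468% in the CCT068127 libraries, against 0.294%, 0.218% and 0.0804% in the DMSO libraries, and the groups overlapped. The read-through ATP5MF-PTCD1 had 77 counts over the CCT068127 libraries, all in replicate 1, and 874 over the DMSO libraries, 0 of them in replicate 3 (ratio 5.7, 4.45 to 7.2), and it shares sequence with ATP5MF. The ubiquitous forms accounted for nearly all transcript of each isoform pair in both groups.

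Promoter windows of 300 bases were found for 39 of the 52 members, 35 of them tested. The NRF1 core GCGCATGC was present in 9 of these 35 (25.7%), beside 5.59% of the windows of 9882 tested protein-coding genes. The ETS core CCGGAAG was present in 15 of 35 (42.9%), beside 20% of the 9882, and the YY1 core AAGATGGC in 5 of 35 (14.3%), beside 5.5%. The cyclic AMP response element core TGACGTCA was in 3 of 35 (8.57%), beside 3.28%, and CCAAT in 15 of 35 (42.9%), beside 36.7%. The median log2 fold change was 0.78 for the 9 members with an NRF1 core and 0.97 for the 26 without one. It was 1.16 for the 15 members with an ETS core and 0.34 for the 20 without one. It was 0.37 for the 5 members with a YY1 core and 1.05 for the 30 without one. For the cyclic AMP response element core it was 1.13 in the 3 members with it and 0.75 in the 32 without it. For CCAAT it was 1.22 in the 15 members with it and 0.51 in the 20 without it. The last 2 motifs were added after the sequence of ATP5MC1, the member with the largest rise, had been read. ATP5MC1 holds both motifs and is counted in both groups with a motif. ATP5MC2, which fell, and CYCS and COX6A1, which rose, all hold an NRF1 core in the upstream sequences printed here. The genes printed were chosen for their changes, and the start used for ATP5MC2 lies inside the gene's RefSeq span. Whether any motif goes with the fold change was not tested.

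Among the regulators, 6 of 14 tested genes were higher and 4 lower with TMM, beside 31.9% and 32.8% of all genes, and 2 were higher and 6 lower on log2(TPM + 1), beside 17.2% and 51.9%. NRF1 itself had 4.02, 6.18 and 3.25 TPM in the CCT068127 libraries, against 10.5, 9.99 and 11.7 TPM in the DMSO libraries, and fell (log2 fold change -0.84 ± 0.20, SE; edgeR adjusted p = 0.00333). TFAM, which packages mitochondrial DNA and takes part in its transcription, rose (log2 fold change 1.17 ± 0.13, SE, edgeR adjusted p = 2.55e-05). It had 106, 136 and 109.5 TPM in the CCT068127 libraries, against 56.9, 57.2 and 59.9 TPM in the DMSO libraries. The alternative beta subunits of GABP moved oppositely, GABPB2 with a log2 fold change of 2.36 and GABPB1 with -0.85. On log2(TPM + 1) they were 1.16 and -1.23. GABPA, another GABP gene, and YY1 did not pass the threshold with TMM (log2 fold changes 0.03 and -0.08). On log2(TPM + 1) GABPA was -0.36 without passing the threshold, and YY1 was called lower at -0.55. LRPPRC, which stabilises mitochondrial messenger RNAs, fell by 0.69 on the log2 scale. The coactivator gene PPARGC1A was below the filter, at 0.25, 0 and 0.15 TPM in the CCT068127 libraries and 0.01, 0.01 and 0.13 TPM in the DMSO libraries.

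Genes that work with these complexes were read out from lists of the same pathway. NDUFA4, now counted as a complex IV subunit although its symbol falls outside the rule, had 124, 135 and 121 TPM in the CCT068127 libraries, against 41.8, 40.6 and 38.8 TPM in the DMSO libraries. It rose (log2 fold change 2.13 ± 0.10, SE; edgeR adjusted p = 7.13e-08), close to the complex IV genes with the largest changes. Of 37 nuclear complex I subunits 25 were higher and 1 was lower (median 0.73), with NDUFA2 at 1.62 and NDUFB6 at 1.40 among those higher (log2 fold changes). On log2(TPM + 1) the counts for complex I were 17 higher and 9 lower. Of 13 citric acid cycle genes 10 were higher and none lower with TMM, MDH2 at 1.15 among them. On log2(TPM + 1) 4 of these were higher and 2 lower. With library totals 21 complex I genes were higher and 6 lower, and 4 citric acid cycle genes were higher and 1 lower. Of all genes tested, 31.9% were higher and 32.8% lower with TMM, and 22.1% and 48.3% with library totals. On log2(TPM + 1) these shares of all genes were 17.2% and 51.9%.

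Of 44 assembly factors of complexes II to V, 24 were higher and 6 lower with TMM (median 0.35), 16 were higher and 13 lower with library totals, and 8 were higher and 18 lower on log2(TPM + 1), beside the shares of all genes given for each scaling. The list's median lay 0.40 above that of all genes with TMM, 0.40 with library totals and 0.24 on log2(TPM + 1). HIGD1A, which binds cytochrome c oxidase, had 122, 154 and 127 TPM in the CCT068127 libraries, against 45.3, 43.5 and 45.4 TPM in the DMSO libraries, and rose (log2 fold change 2.07 ± 0.11, SE; edgeR adjusted p = 1.28e-07). CMC2 rose by a log2 fold change of 1.90. SURF1, an assembly factor for complex IV, had 44.3, 35.1 and 40.8 TPM in the CCT068127 libraries, against 99.6, 103 and 109 TPM in the DMSO libraries, and fell (log2 fold change -0.85 ± 0.12, SE; edgeR adjusted p = 0.000112). COX19, which takes part in copper delivery to complex IV, fell by 1.38 on the log2 scale. These 4 genes kept their direction and their call under library totals and on log2(TPM + 1).

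The mitochondrially encoded subunits of complexes III to V gave counts that rested on 1 library and on the scaling. With TMM 2 of 6 were higher, COX1 and COX2 (log2 fold changes 0.67 and 0.55), and none was lower. Of all genes tested 31.9% were higher and 32.8% lower, so 2 of 6 higher is near the share of all genes. COX1 had 8814, 15501 and 10791 TPM in the CCT068127 libraries, against 10363, 10390 and 10106 TPM in the DMSO libraries, and CCT068127 replicate 2 was the highest. Without that library, which had the high mitochondrial share, 2 of the 6 were higher and 3 lower, with a median of -0.25. In that fit 4442 of all 14040 genes tested were higher and 4800 lower. On log2(TPM + 1) with all libraries none was higher and 2 were lower, CYTB and COX3 (-0.78 and -0.81). Of all genes, 17.2% were higher and 51.9% lower on that scale. The nuclear members' own median was 0.735 without CCT068127 replicate 2, with 36 genes higher and 3 lower.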

How the data were processed

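Per the labels' protocols, poly(A) RNA was captured on magnetic beads, libraries came from a NEB Ultra II kit and the sequencer was a NovaSeq. For each symbol the authors deposited 1 table of estimated counts, already rounded to whole numbers, and 1 table of TPM. RSEM, Bowtie and hg38 are named, without versions, in the submitters' processing notes. The sources used here give neither strandedness nor annotation, so reads from opposite strands at overlapping genes cannot be told apart.

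Counts of all 38557 symbols were filtered with filterByExpr (minimum count 10, which corresponds to 1.74 CPM at median depth, in 3 libraries), scaled by TMM and tested with edgeR 4.0.16 in R 4.3.3 (two-sided quasi-likelihood test, robust, treatment as the only term). P-values were adjusted by Benjamini-Hochberg over 13597 genes, with calls at an adjusted p under 0.05. SE was approximated from the F statistic. The edgeR fit alone was tested on simulated counts. Deposited TPM values were also tested on log2(TPM + 1) with limma-trend (limma 3.58.1) after a filter of 1 TPM in 3 libraries. Such fold changes understate changes of low genes. Other alternatives were DESeq2 1.42.0, limma-voom, other scalings and filters, and leaving out libraries. Intervals and floors of 3 counts cover counting error only.

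Groups and replicate numbers came from sample titles. No pair of replicates agreed within counting noise (chi-square per degree of freedom 1.97 or more). The members, lists and rules were chosen with earlier results of these data known. Genes given in full were, per complex, up to 4 called members in each direction by smallest adjusted p plus a fixed set of subunits, and from each list up to 2 called genes in each direction plus NDUFA4, PPARGC1A, NRF1 and TFAM. Some genes that this rule selects are not reported here. Promoters matched RefSeq by gene ID.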

Additional observations from a re-analysis of the deposited data

How the results depend on the processing

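All 43 tested members kept direction and call with DESeq2 size factors, with the 2 deep libraries thinned and with limma-voom. Calls were lost by 1 member with upper-quartile scaling, 7 with library totals and 6 without the low-count filter, and DESeq2 added 3 (ATP5MPL, COX7A2L and SDHA, all higher). With library totals the median log2 fold change was 0.509 for all members, 0.459 for complex II, 0.666 for complex III with cytochrome c, 1.268 for complex IV and 0.363 for complex V. On log2(TPM + 1) these medians were 0.46, 0.37, 0.461, 1.069 and 0.184, with log2(TPM + 0.1) 0.465, 0.375, 0.466, 1.082 and 0.185, and on unfiltered log2(TPM + 1) 0.4, 0.37, 0.389, 0.553 and 0.334. Without the low-count filter in edgeR they were 0.732, 0.532, 0.661, 1.417 and 0.514, where low members also enter. DESeq2 size factors gave 0.806 for complex II and 1.615 for complex IV, and DESeq2 itself 0.806, 1.623 and, for complex V, 0.716.

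Calls over all genes on log2(TPM + 1) were 2476 higher and 7475 lower, with 7 members lower. With log2(TPM + 0.1) they were 2446 and 7300, with 7 members lower, and unfiltered 7326 genes and 6 members were lower. With library totals signs turned to negative for ATP5F1C (-0.019) and for 6 members not called with TMM: ATP5MPL (-0.075), SDHA (-0.102), UQCRC1 (-0.125), COX7A2L (-0.137), CYC1 (-0.185) and UQCRC2 (-0.203). On log2(TPM + 1), log2(TPM + 0.1) and unfiltered log2(TPM + 1), they turned for ATP5F1C (-0.177, -0.178, -0.177), ATP5IF1 (-0.174, -0.175, -0.174), ATP5MPL (-0.292, -0.294, -0.292), ATP5PB (-0.113, -0.114, -0.113), COX5A (-0.14, -0.141, -0.14), COX5B (-0.207, -0.208, -0.207), COX7A2L (-0.271, -0.272, -0.271), UQCRB (-0.108, -0.11, -0.108) and UQCRC2 (-0.374, -0.376, -0.374). SDHA (-0.285, -0.287, -0.285), CYC1 (-0.431 on log2(TPM + 1)) and UQCRC1 (-0.328 on log2(TPM + 1)) turned as well, and SDHA was called lower with the filter only.

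With DMSO replicate 3 as the only control, whose spread is then assumed to be that of the treated group, 2740 genes and 1 member were lower, 9 members lost their call, and the medians were 0.919 for all members, 0.718 for complex II and 0.631 for complex V. Leaving out each library gave 31 to 36 members higher and 3 lower, and medians of 0.735 to 0.848 for all members, 0.711 to 0.776 for complex II, 0.891 to 1.033 for complex III with cytochrome c, 1.55 to 1.601 for complex IV and 0.626 to 0.71 for complex V. The ATP5MC1 share difference was 39.86 to 41.61 percentage points. COX5B lost its call in 5 of these 6 fits, ATP5F1C and ATP5IF1 without CCT068127 replicate 3, DMSO replicate 2 or DMSO replicate 3, and COX5A without DMSO replicate 2 or 3. Same-numbered libraries did not deviate together (correlations 0.01, 0.005 and 0.009), so the numbers were not taken as pairs. With the replicate number as a block 33 members were higher and 3 lower (4107 and 4190 of all genes), medians were 0.819, 0.77, 0.963, 1.573 and 0.675, and COX5B alone among the members lost its call. Apart from the scalings' own construction, the cause of these shifts was not tested. The 4 shallow libraries limit what can be said of the 9 members under the count filter.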

Other observations

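Some members share a promoter region with a gene on the opposite strand. Of 35 tested members with a promoter entry, 9 (25.7%) had a protein-coding neighbour whose start lay upstream within 500 bases, beside 12.2% of 9882 tested protein-coding genes. The neighbours' calls were mixed, near the shares of all genes tested (31.9% higher and 32.8% lower), so they show nothing particular to these pairs. EMC8, whose start lies 151 bases from that of COX4I1, was higher in CCT068127 (log2 fold change 0.92 ± 0.12, SE), as were KIN beside ATP5F1C (1.46) and CCDC127 beside SDHA (0.59). MYL5 beside ATP5ME (-1.57), PDCD11 beside ATP5MD (-0.48) and LRRC41 beside UQCRH (-0.42) were lower, while the member of each of these pairs was higher. HAUS1 beside ATP5F1A, WDR77 beside ATP5PB and ZMAT5 beside UQCR10 did not pass the threshold in the edgeR test.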
